A study of Mus musculus with 6 samples.

Results

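The untreated state of cultured mouse oligodendrocyte progenitor cells (OPCs) was described from the 3 vehicle libraries of a 6-library RNA-seq series, chosen by their titles. The other 3 libraries, of cultures given hemin, were not analysed here, and no comparison between treatments was made. All 3 cultures were of wild-type C57BL/6 mice. Cells came from the cortices of pups of postnatal day 0 to 2 by the protocol, or day 1 by the sample label, and were captured with magnetic beads against CD140a, the protein product of Pdgfra. They were plated on polyornithine, expanded for 3 days in growth medium and exposed to 0.25% DMSO, the solvent of the vehicle, for 12 h. A bead capture enriches cells and does not purify them to 1 type, and the labels do not say whether the 3 samples came from separate litters or cultures, so the spread given here may be technical. Sex and pooling of pups are not given in the labels.

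OPCs are the dividing glial precursors of the brain. They depend on platelet-derived growth factor, which acts through PDGFRα, and the transcription factors Olig1, Olig2 and Sox10 hold them in the oligodendrocyte lineage. When they leave the cycle they pass through a committed stage marked by Gpr17 and then switch on the genes of myelin. They carry receptors for glutamate and GABA and receive synapses from neurons, and the lipid that myelin needs makes sterol and fatty acid synthesis prominent in the lineage.

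Levels are given in FPKM, a fragment count scaled by transcript length and library size, summed over the transcript models of a gene. Because of the scaling by length, FPKM allows genes to be ordered within these libraries. The annotated tables held 6339966, 6390691 and 6354174 expected counts in replicates 1, 2 and 3. In any of the 3 libraries 16752 genes were listed, with a median level of 3.99 FPKM, and 10736 of them (64.1%) reached 1 FPKM in every library. Ranks run from 1, the highest, and a percentile is the share of listed genes below a gene. A level of 10 FPKM in every library was reached by 5081 genes (30.3%) and 100 FPKM by 467 (2.79%). These shares of listed genes are the background for the counts of list members at each level. Unannotated features, which the authors keep in a separate table, took 21.6% ± 0.905 (SD, n = 3) of all counts and were not ranked. The 5 largest of them in each library held 90.2% ± 0.263 of the unannotated counts. No gene encoded by mitochondrial DNA was listed. Ranks therefore hold among the annotated genes listed, not among all RNA of the cells.

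Among the annotated genes, the most abundant messages were those of translation and the cytoskeleton, with the glial gene Fabp7 at rank 2. Eef1a1, the elongation factor that brings aminoacyl-tRNA to the ribosome, was at rank 1 with 3780.2 FPKM ± 149 (SD, n = 3). Fabp7, the brain lipid-binding protein of radial glia and glial precursors, reached 3566 FPKM ± 429, with 3470.4, 4035 and 3193 FPKM in replicates 1, 2 and 3. Its lowest library was still above the highest library of every lower-ranked gene shown here. Dbi, an acyl-CoA-binding protein rich in glial precursors, was at rank 5 with 1372 FPKM ± 61.3. The other members of the first 15 were Rpl23a, Rps27, Rpl41 and Rps26 of the ribosome, Tuba1a, Cfl1, Tmsb4x and Actg1 of the cytoskeleton, the chaperones Ppia and Hspa8, Tpt1, and the brain creatine kinase Ckb at 1119 FPKM ± 119. Of the 82 ribosomal protein genes listed, 50 were among the 100 highest genes, and the group held 13.2% ± 0.436 of summed FPKM. The 100 highest genes together held 24.9% ± 0.413, and 585 to 614 genes were enough to hold 50% of it. Ribosomal protein genes, Eef1a1, Ppia, Tuba1a, Actg1, Gapdh and the ferritin genes have near-identical copies in the genome, so their reads could have been split and their levels are uncertain.

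**Figure D1:**
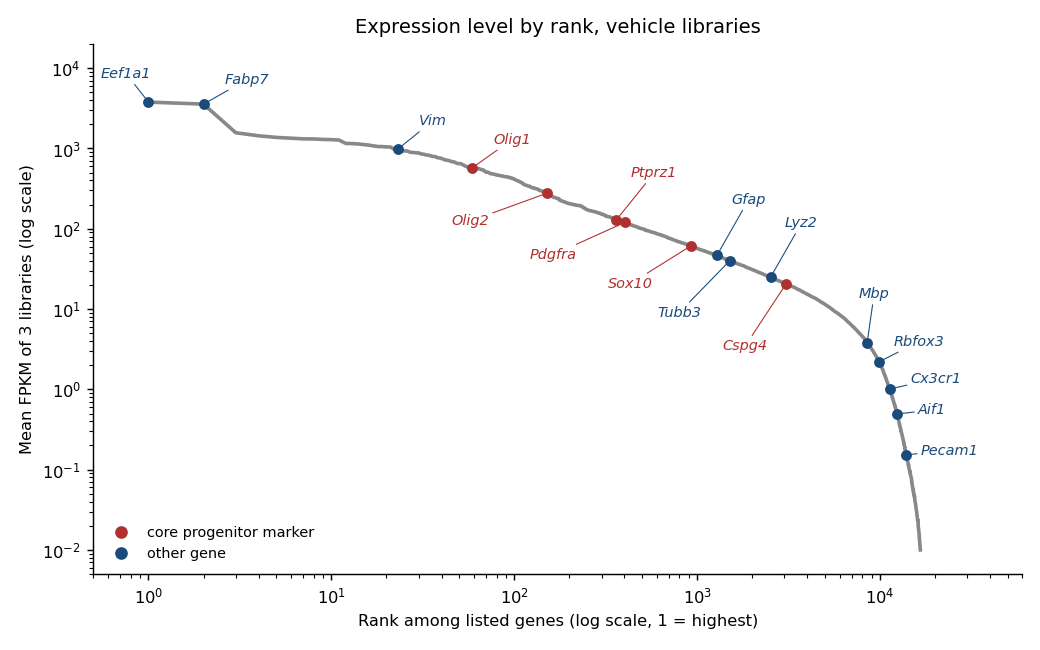
Mean FPKM of the 3 vehicle libraries against rank, both on log axes; each point is a named gene, with the 6 core progenitor markers in red and other genes in blue. Olig1 at rank 59 is the highest core marker and Cspg4 at rank 3059 the lowest. Rbfox3 of mature neurons, Cx3cr1 and Aif1 of microglia and Pecam1 of vessels lie on the steep right-hand end. The macrophage gene Lyz2, at rank 2519, lies above Cspg4.

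The 6 markers of the cell type label were all above 10 FPKM in every library, a level reached by 30.3% of listed genes. Since 16 of 20 astrocyte markers reached it too, this level alone does not tell cell types apart. Olig1 was listed at 523, 649 and 556 FPKM in replicates 1, 2 and 3 (mean 576 ± 65.4, rank 59). Olig2, its partner basic helix-loop-helix factor, was listed at 275, 293 and 264 FPKM (mean 277 ± 14.7, rank 151). Both stood within the highest 1% of listed genes, and their ranges did not overlap. Ptprz1, a receptor-type tyrosine phosphatase of glial precursors, was at 119, 145 and 126 FPKM (rank 362). Pdgfra was at 108, 148 and 105 FPKM (mean 120 ± 24.2, rank 403), so its range overlapped that of Ptprz1 and the order of the pair is not settled by these libraries. Sox10 followed at 64.2, 66.9 and 53.3 FPKM (rank 927). Cspg4, which encodes the NG2 proteoglycan, was the lowest of the 6 at 23.3, 23.3 and 15.02 FPKM (mean 20.6 ± 4.80, rank 3059, percentile 81.7). Without scaling by length, as CPM, Sox10 was the lowest of the 6 at percentile 94.6, just below Cspg4 at percentile 94.9. Replicate 2 was the highest library for 5 of the 6, against 34.0% of the 11299 genes with a mean of at least 1 FPKM, and replicate 3 the lowest for 4 of the 6, against 40.9%.

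A wider set of 34 genes enriched in OPCs was also high, with a median member at 21.0 FPKM and percentile 82.2, against 3.99 FPKM for all listed genes. In every library 30 of the 34 reached 1 FPKM and 24 reached 10 FPKM. The highest were Ncan and Bcan, the chondroitin sulphate proteoglycans neurocan and brevican, and Ednrb, the endothelin B receptor. Ncan was at 212, 200.2 and 211 FPKM in replicates 1, 2 and 3 (mean 208 ± 6.41), the steadiest of the 3. Bcan was at 105, 105 and 89.1 FPKM, and Ednrb at 109, 109 and 74.8 FPKM. Replicate 3 was thus the lowest library for both Bcan and Ednrb. Among transcription factors of the lineage, Sox4 reached 58.5 FPKM ± 6.45, Sox8 56.9 ± 7.97 and Nkx2-2 14.8 ± 3.23. The low end held Pcdh15 at 1.22 FPKM, and Nkx6-2, Matn4 and C1ql2 below 1 FPKM.

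Genes of the next stage, the committed precursor, were at middle levels. Of 16 genes of committed precursors, 11 reached 1 FPKM in every library and 4 reached 10 FPKM, beside 64.1% and 30.3% of listed genes. The median member was at 4.73 FPKM, percentile 53.0. Fyn, the Src-family kinase of early differentiation, was at 106, 113 and 96.8 FPKM in replicates 1, 2 and 3, and Sirt2, a tubulin deacetylase, at 61.5, 52.9 and 44.4 FPKM. Gpr17, the orphan receptor that defines the committed stage, was at 29.5, 30.4 and 10 FPKM. Its level in replicate 2 was 3.04 times that in replicate 3, the widest ratio among members of the list above 10 FPKM. Bcas1, a marker of newly forming oligodendrocytes, had 27.8, 27.1 and 17.1 FPKM, again lowest in replicate 3. Myrf, the master regulator of myelin genes, was at 0, 1.47 and 0.39 FPKM, and Neu4, Enpp6, Bmp4 and Tmem163 were also below 1 FPKM.

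Myelin genes were low. Of 22, 11 reached 1 FPKM in every library, beside 64.1% of listed genes, and the median member was at 1.14 FPKM, percentile 33.5. The highest were Cnp, a phosphodiesterase made from the precursor stage on, at 42.8, 39.4 and 26.5 FPKM, Omg, the oligodendrocyte-myelin glycoprotein that neurons make too, at 35.9 FPKM ± 3.65, and Qdpr, a pteridine reductase, at 35.0 FPKM ± 0.372. Mbp, the basic protein of compact myelin, stayed near the median of listed genes at 5.52, 3.37 and 2.51 FPKM, which is rank 8490. Mag averaged 0.0967 FPKM, Opalin and Mal were below 1 FPKM, and Mog and Mobp were not listed in any library and were set to 0. The values of the progenitor, committed and myelin genes are set side by side in the plot of markers by cell class.

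**Figure D2:**
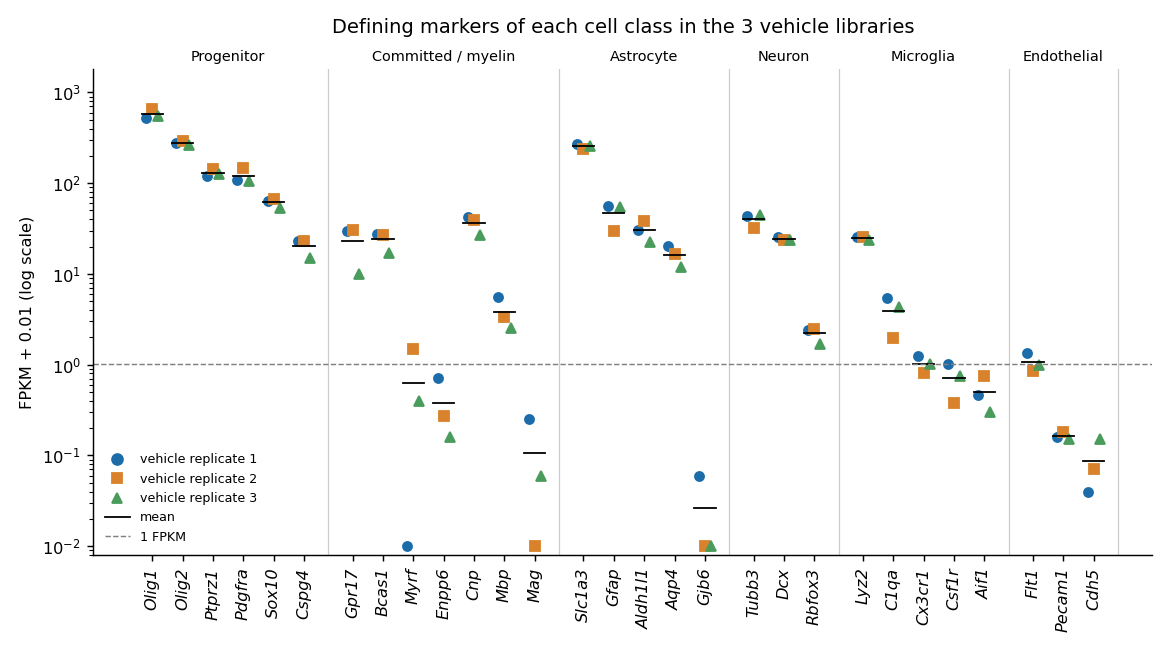
FPKM + 0.01 on a log axis for defining markers of 6 cell classes; each point is 1 vehicle library, the bar is the mean of 3 and the dashed line is 1 FPKM. The 6 progenitor markers and the astrocyte genes Slc1a3, Gfap, Aldh1l1 and Aqp4 lie above 10 FPKM in every library, whereas Myrf, Enpp6, Mag, Aif1, Pecam1 and Cdh5 have means below 1 FPKM.

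Genes of astrocytes were well represented, with a median member at 32.05 FPKM, percentile 88.4. This was below the median core progenitor marker at 125 FPKM, percentile 97.7. It was above the median of the 34 other OPC-enriched genes at 21.0 FPKM, percentile 82.2. All 20 astrocyte genes were listed, 18 reached 1 FPKM in every library and 16 reached 10 FPKM. Their summed FPKM was 1399, 1144 and 1289.5 in replicates 1, 2 and 3, which was 0.403% ± 0.0428 of all summed FPKM, beside 0.374% ± 0.0362 for the 6 core progenitor markers. Apoe, the main lipid carrier of glia, was the highest at 336, 211 and 349 FPKM, Slc1a3, the glutamate transporter GLAST, was at 270.4, 240.5 and 256 FPKM, and Glul, glutamine synthetase, averaged 162 FPKM ± 14.6. These 3 genes are also made by radial glia and, at lower levels, by OPCs. Among more restricted markers Gfap, the intermediate filament of astrocytes, was at 56.0, 29.4 and 54.0 FPKM. Aldh1l1, a folate enzyme, was at 30.4, 38.3 and 22.4 FPKM, and the water channel Aqp4 at 20.4, 16.5 and 11.8 FPKM. These 3 did not all move together: Gfap and Aqp4 were highest in replicate 1, but Gfap was lowest in replicate 2 and Aldh1l1 highest there. Of the 18 members with a mean of at least 1 FPKM, 12 were highest in replicate 1, against 32.4% of all such genes. Replicate 2 was lowest for 8 of the 18, against 29.2% of all such genes, and replicate 3 for 10, against 40.9%. Gjb6, the connexin 30 gene of maturing astrocytes, was listed at 0.0167 FPKM on average, and Ntsr2 was below 1 FPKM. In bulk RNA, fewer cells of a type and less RNA per cell cannot be told apart, and the same holds for a gene made by 1 cell type or by several.

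The 15 genes of neural stem cells and radial glia held 1.98% ± 0.121 of summed FPKM, most of it in Fabp7 and Dbi. Without scaling by length, as CPM, the share was 0.848%. Vim, the intermediate filament vimentin of immature glia, was at 1009, 866 and 1048 FPKM (rank 23), Sox2 at 124 FPKM ± 8.22 and Nes, the nestin of neural precursors, at 113 FPKM ± 8.41. Factors that pattern the cortical wall were lower: Emx2 averaged 11.01 FPKM ± 0.267 and Pax6 7.93 FPKM ± 1.96. Eomes, the Tbr2 gene of intermediate neuronal precursors, averaged 0.543 FPKM.

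Neuronal messages were present at moderate levels. Of 30 genes, 27 reached 1 FPKM in every library and 11 reached 10 FPKM, the median member was at 4.97 FPKM, percentile 53.9, and the summed levels were 420.2, 381 and 431 FPKM, or 0.130% ± 0.00897 of the total. Gap43 at 91.0 FPKM ± 8.67 and Map2 at 54.8 FPKM ± 6.69 were the highest, and both are known from glial precursors as well. Tubb3, the neuronal tubulin, was at 43.9, 32.4 and 44.1 FPKM, and Dcx, the microtubule protein of migrating neuroblasts, at 25.6, 23.65 and 23.6 FPKM. Markers of both cortical projection neurons and interneurons were found: Neurod6 was at 14.5 FPKM ± 4.10 and Gad1 at 12.5 FPKM ± 1.99. Rbfox3, the NeuN gene of mature neurons, was only at 2.41, 2.48 and 1.7 FPKM, and Nefh averaged 0.157 FPKM. Among the 27 members with a mean of at least 1 FPKM, 14 were highest in replicate 3, against 33.5% of all such genes, and 14 lowest in replicate 2, against 29.2%.

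Microglial genes were low and uneven over the libraries. Of 20, 10 reached 1 FPKM in every library and 2 reached 10 FPKM, beside 64.1% and 30.3% of listed genes. The highest was Lyz2, a lysozyme gene of macrophages, at 24.95 FPKM ± 1.26. The list summed to 84.4, 64.9 and 71.8 FPKM in replicates 1, 2 and 3, or 0.0233% ± 0.00327 of the total. C1qa, a complement subunit made by microglia, was at 5.44, 1.96 and 4.32 FPKM. C1qb, another subunit, was at 3.55, 1.41 and 4.30 FPKM. Replicate 2 was lowest for both, and the highest library was replicate 1 for C1qa and replicate 3 for C1qb. Of the 12 members with a mean of at least 1 FPKM, 10 were lowest in replicate 2, against 29.2% of all such genes, and 11 were highest in replicate 1, against 32.4%. The defining markers differed in level. C1qa and Tyrobp, the latter at 2.79 FPKM on average, were above 1 FPKM in every library. Cx3cr1 averaged 1.01 FPKM, Csf1r 0.707, Itgam 0.56, Aif1, the IBA1 gene, 0.493 and Ptprc 0.277. Tmem119 and P2ry12, genes of mature resident microglia, were listed in 1 library each. P2ry12 was at 0.83 FPKM in replicate 2, and at 0 in the others, and Tmem119 at 0.05 FPKM in replicate 3.

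Most genes of vessels, ventricles, peripheral nerve and blood were low. Of 12 endothelial genes none reached 1 FPKM in every library. The highest was Flt1, a VEGF receptor, at 1.05 FPKM ± 0.255, whereas Pecam1 and Cdh5, the adhesion molecules of the endothelial junction, averaged 0.153 and 0.0767 FPKM. Among 16 mural and fibroblast genes, Cspg4 belongs to progenitors too, and without it the highest was Tagln, a smooth muscle protein, at 6.31, 3.88 and 8.86 FPKM. Pdgfrb, the receptor of pericytes, averaged 0.76 FPKM, and Col1a1 and Dcn were below 1 FPKM. Of 8 ependymal and choroid plexus genes only Foxj1 had a mean above 1 FPKM, at 2.93, 1.44 and 0 FPKM, so it rests on 2 libraries. Of 8 Schwann cell genes, 5 had a mean below 1 FPKM, but Pmp22, which many other cells make too, was at 38.2 FPKM ± 5.52 (percentile 90.4). Of 7 erythroid genes, 4 were not listed and the others summed to at most 0.210 FPKM in a library.

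Both Xist, the noncoding RNA of the inactive X chromosome, and genes of the Y chromosome were present in all 3 libraries. Xist was at 38.1, 55.8 and 42.6 FPKM in replicates 1, 2 and 3. Eif2s3y, a translation factor gene on the Y chromosome, was at 19.5, 11.5 and 17.0 FPKM, and Ddx3y, a helicase gene there, at 4.53, 2.70 and 3.95 FPKM. Xist was highest in replicate 2, and all 4 Y-linked genes (Eif2s3y, Ddx3y, Uty and Kdm5d) were lowest there and highest in replicate 1. Among all genes with a mean of at least 1 FPKM, 29.2% were lowest in replicate 2 and 32.4% highest in replicate 1. Xist is overlapped by an antisense gene, and without a stated strand their reads cannot be told apart.

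Pdgfra dominated the receptor tyrosine kinases. Of 57 genes of this class, 29 reached 1 FPKM in every library and 9 reached 10 FPKM, beside 64.1% and 30.3% of listed genes. Only Pdgfra reached 100 FPKM, and the class median was 1.42 FPKM. Egfr, the receptor of epidermal growth factor, was next at 46.9, 43.9 and 37.0 FPKM. Its highest library was below the lowest of Pdgfra, at 105 FPKM. Ryk, a Wnt receptor, averaged 33.0 FPKM ± 2.27, Ntrk2, the BDNF receptor TrkB, 31.1 FPKM ± 4.04 and Ddr1, a collagen receptor of the lineage, 28.4 FPKM ± 2.50; the ranges of neighbours in this trio overlapped. Fgfr1 was at 19.99, 20.3 and 27.4 FPKM, Fgfr3 averaged 16.6 FPKM ± 1.40 and Fgfr2, the form that rises in mature oligodendrocytes, 1.38 FPKM ± 0.467. Receptors for insulin and IGF1, hormones supplied in most OPC media, were lower: Insr averaged 8.72 FPKM ± 0.171 and Igf1r 6.07 FPKM ± 0.660. Among the neuregulin receptors Erbb4 was at 7.15 FPKM ± 1.89 and Erbb2 at 2.01 FPKM ± 0.336, whereas Erbb3 was below 1 FPKM at 0.263.

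Glutamate receptors were led by AMPA and kainate subunits. Of 18 ionotropic genes, 11 reached 1 FPKM in every library, beside 64.1% of listed genes. Gria2, the AMPA subunit that limits calcium entry, was the highest at 29.7, 30.1 and 26.4 FPKM. It was above Gria3 at 14.2 FPKM ± 0.884, Gria1 at 7.48 FPKM ± 1.22 and Gria4 at 3.47 FPKM ± 0.887, and the ranges of these 4 subunits did not overlap. Of the kainate subunits Grik5 averaged 20.2 FPKM ± 0.612 and Grik3 15.1 FPKM ± 0.918. NMDA receptor genes were lower, with the modulatory subunit Grin3a at 8.51 FPKM ± 2.03 above the obligatory Grin1 at 4.18 FPKM ± 0.604, and with all 4 Grin2 genes below 1 FPKM. Among 8 metabotropic genes Grm5 was the highest at 13.05, 16.4 and 9.47 FPKM, followed by Grm3 at 9.99, 8.15 and 5.54 FPKM and Grm4 at 1.23 FPKM ± 0.121.

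Of 20 GABA receptor genes, 10 reached 1 FPKM in every library, beside 64.1% of listed genes. Gabbr1, a subunit of the GABA-B receptor, was at 13.5, 18.2 and 21.4 FPKM. Gabrg1, the γ subunit of glial precursors, was at 9.16, 10.95 and 5.21 FPKM, lowest in replicate 3. Among 47 receptors for acetylcholine, purines, lipids, endothelin and chemokines, Ednrb was the highest, followed by Adgrg1, the adhesion receptor GPR56 that keeps OPCs in cycle, at 30.2 FPKM ± 4.83, and S1pr1, a sphingosine phosphate receptor, at 22.3, 20.7 and 27.6 FPKM. The muscarinic receptors Chrm1 and Chrm3, targets of compounds that promote differentiation, were at 1.62 and 0.627 FPKM. Adora1, an adenosine receptor, averaged 9.27 FPKM ± 1.23.

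The summed level of nuclear receptors varied little between libraries. Of 48 genes, 42 were listed and 23 reached 1 FPKM in every library, beside 64.1% of listed genes. The sum over the class was 207, 211 and 208 FPKM. Thra, the thyroid hormone receptor α, was the highest at 56.3, 52.5 and 50.5 FPKM, whereas Thrb, the β form, averaged 0.91 FPKM. Thra overlaps Nr1d1 on the opposite strand, so part of its reads could belong to that gene. Nr2f1, the orphan receptor COUP-TFI, was at 38.3 FPKM ± 1.82 and Nr2e1, the stem cell receptor Tlx, at 11.9 FPKM ± 0.672. Rxrg, the retinoid X receptor tied to remyelination, was low at 1.68 FPKM ± 0.369 beside Rxrb at 8.70 FPKM ± 0.0987. Nr3c1, the glucocorticoid receptor, was less even, at 3.56, 9.59 and 10.8 FPKM, with replicate 1 well below the other two.

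Messages for glucose use were abundant. Of 25 glycolysis and transport genes, 21 reached 1 FPKM in every library and 9 reached 100 FPKM. Gapdh was the highest at 913, 873 and 997 FPKM, Eno1 averaged 427.5 FPKM ± 9.63 and Pkm, pyruvate kinase, 379.7 FPKM ± 11.6. Among enzymes with several genes, 1 form was well above its partners: Hk1 was at 34.9 FPKM ± 2.60 and Hk2 at 4.00 FPKM ± 0.881, and Pfkm at 26.3 FPKM ± 1.26 above Pfkp at 9.0 FPKM ± 1.07 and Pfkl at 8.29 FPKM ± 0.647. Ldha, at 186 FPKM ± 7.15, and Ldhb, at 125 FPKM ± 9.55, were of like size. Of the lactate carriers, Slc16a1 was at 14.7 FPKM ± 1.21 and the other two, Slc16a3 and Slc16a7, at 0.0800 FPKM each. The glucose transporter Slc2a1 was at 14.03 FPKM ± 1.34 and Slc2a3 at 5.52 FPKM ± 0.403.

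The Pkm gene makes the M1 and M2 forms of the enzyme by use of 1 of 2 exons of equal length, and these exons are shown because nearly all Pkm RNA was assigned to 1 of them. On the plus strand of GRCm38 the M1 exon lies at chr9:59675029-59675195 and the M2 exon at chr9:59675568-59675734, both coding. Of 167 bases, 103 were the same in both exons (61.7%) and 64, in capitals here, differed.
Pkm M1 exon: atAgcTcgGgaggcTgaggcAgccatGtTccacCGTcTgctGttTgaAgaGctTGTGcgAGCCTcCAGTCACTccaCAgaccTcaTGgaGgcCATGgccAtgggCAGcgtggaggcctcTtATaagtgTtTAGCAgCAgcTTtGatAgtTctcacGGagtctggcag
Pkm M2 exon: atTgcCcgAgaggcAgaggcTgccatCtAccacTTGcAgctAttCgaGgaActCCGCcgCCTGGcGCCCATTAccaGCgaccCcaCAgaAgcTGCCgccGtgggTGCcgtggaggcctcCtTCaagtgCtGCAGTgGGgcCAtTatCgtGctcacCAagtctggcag
The model with the M2 exon held 93.2, 92.4 and 90.7% of Pkm FPKM in replicates 1, 2 and 3 (mean 92.1% ± 1.28), and the model with the M1 exon 6.84, 7.61 and 9.35%. M2 is the form of dividing and embryonic cells, and M1 that of muscle and mature neurons. All 3 libraries thus gave the same order by a wide margin.

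Ntrk2 also differed by model. The truncated receptor, which lacks the kinase domain and ends in a short tail of its own, held 91.9, 88.6 and 88.9% of Ntrk2 FPKM, and the full-length model of 821 residues the rest (10.2% ± 1.82). The truncated model encodes 476 residues. The last coding bases that set it apart, at chr13:58932023-58932057 on the plus strand of GRCm38, are shown since they mark the form that prevailed.
Ntrk2 truncated coding end: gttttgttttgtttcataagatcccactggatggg
Truncated TrkB is the usual form of glia, and neurons carry the kinase form as well.

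Transcript models of 2 proteoglycan genes were compared in the same way. Ptprz1 can be made as a long receptor or as a short receptor that lacks much of the extracellular part. The long model of 2312 residues held 82.1, 88.5 and 87.9% of Ptprz1 FPKM, and the short model of 1463 residues 13.8% ± 3.50. For Vcan, the proteoglycan versican, which averaged 24.4 FPKM ± 4.64, the model of 7215 bases held 70.8, 69.98 and 61.4% and the longest, of 12432 bases, 22.7% ± 0.502. The model of 9552 bases held 8.54% ± 4.42, and it was largest in replicate 3. Pdgfra had 2 models that encode the same 1089 residues, so both add to the same protein. These shares are the counter's estimates from reads that often fit several models.

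**Figure D3:**
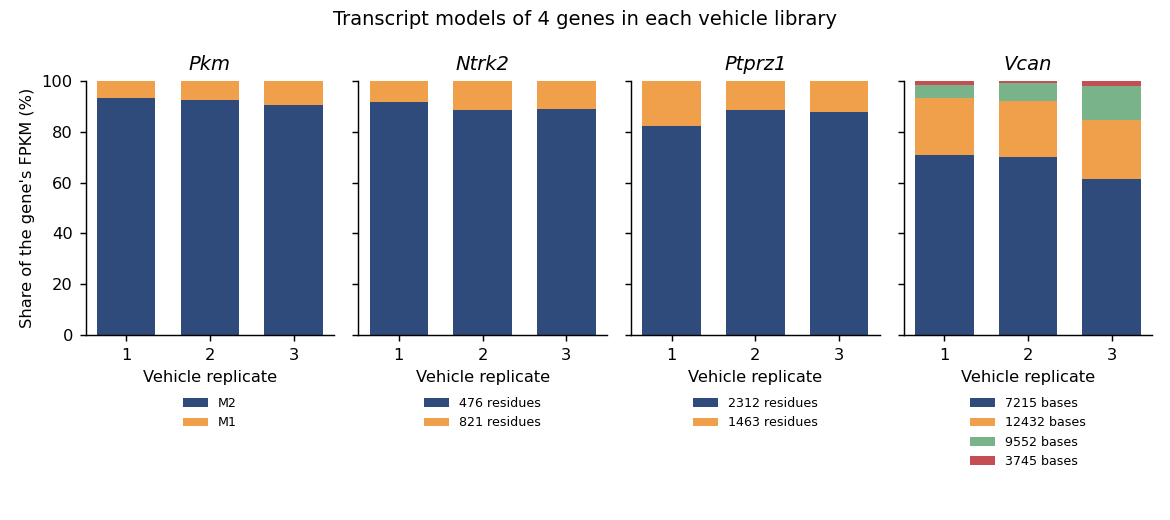
Share of each gene's FPKM, in percent, held by its transcript models in vehicle replicates 1, 2 and 3; colours are models, named by form (Pkm), by encoded residues (Ntrk2, Ptprz1) or by length in bases (Vcan). The M2 model of Pkm and the 476-residue model of Ntrk2 hold at least 88.6% in every library, and the share of the 7215-base Vcan model is lowest in replicate 3.

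Enzymes of the citric acid cycle were high and varied little. All 23 genes reached 10 FPKM in every library, the median member was at 75.25 FPKM, percentile 95.7, and the median CV, the SD as a percent of the mean, was 4.32%. Citrate synthase, Cs, was at 234, 226 and 232 FPKM and malate dehydrogenase, Mdh2, at 206 FPKM ± 3.87. Pcx, pyruvate carboxylase, an enzyme associated with astrocytes, was among the lowest at 23.45, 21.9 and 14.2 FPKM and had the lowest value in replicate 3.

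Lipid synthesis was strongly represented. All 20 genes of cholesterol synthesis reached 1 FPKM in every library and 17 reached 10 FPKM, with the median at percentile 91.9. Hmgcs1, the enzyme at the entry of the pathway, was at 398, 339.5 and 309 FPKM, Fdps, which makes farnesyl diphosphate, at 189, 159 and 150.3 FPKM and the sterol oxidase Msmo1 at 144 FPKM ± 2.93. In fatty acid synthesis Scd2, the Δ9 desaturase of brain, was at 462, 418 and 423 FPKM, beside Scd1 at 81.6 FPKM ± 8.74, and Scd3 and Scd4 near 0. The desaturases Fads2 and Fads1 of long unsaturated chains averaged 121 FPKM ± 11.7 and 96.45 FPKM ± 7.83. Fasn, fatty acid synthase, was at 47.9 FPKM ± 1.05, and Acaca, the first committed enzyme, at 15.5 FPKM ± 3.69.

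Oxidation of fatty acids and the use of ketone bodies were at middle to high levels. Of 17 genes of fatty acid oxidation 16 reached 1 FPKM in every library, led by Hadhb and Hadha, the subunits of the trifunctional protein, at 55.5 FPKM ± 2.76 and 54.5 FPKM ± 1.47, and by Acadl at 44.7 FPKM ± 2.10. Cpt1a, which admits long chains to the mitochondrion, was at 13.3 FPKM ± 0.379. Oxct1, the enzyme that activates acetoacetate, was at 104, 97.1 and 78.3 FPKM, Acat1 averaged 65.6 FPKM ± 2.86 and the acetate enzyme Acss1 20.05 FPKM ± 3.93. All 6 ketone and acetate genes with a mean of at least 1 FPKM were highest in replicate 1, against 32.4% of all such genes. In the pentose phosphate pathway Tkt, transketolase, was at 117, 114 and 118 FPKM, Taldo1 at 86.3 FPKM ± 7.07, Pgls at 66.0 FPKM ± 2.16 and G6pdx, the first enzyme, at 27.2 FPKM ± 2.62.

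Iron and glutathione genes were led by storage. The ferritin light chain Ftl1 was at 649.7, 668 and 825 FPKM in replicates 1, 2 and 3, and the heavy chain Fth1 at 434, 421 and 579 FPKM. For both, replicate 3 stood above the other two, whose values were close. Gpx4, the peroxidase that reduces lipid hydroperoxides, was at 95.7, 108 and 104 FPKM (rank 481). Iron uptake through Tfrc, the transferrin receptor, was at 27.4, 22.8 and 33.2 FPKM, whereas Slc40a1, the exporter ferroportin, averaged 0.310 FPKM. The cystine carrier was uneven in its parts: Slc3a2, the shared heavy chain, was at 44.7 FPKM ± 6.46 and Slc7a11, the light chain that carries cystine, at 3.09, 2.80 and 4.61 FPKM (rank 8721). Hmox1, heme oxygenase 1, was at 19.8, 15.8 and 28.7 FPKM without added hemin, and the constitutive Hmox2 at 32.7 FPKM ± 1.04. The glutathione enzymes Gclc and Gsr were highest in replicate 3 as well, at 38.15 and 32.4 FPKM against means of 29.8 and 27.0 FPKM. Of the 28 members with a mean of at least 1 FPKM, 15 were highest in replicate 3, against 33.5% of all such genes, and 15 lowest in replicate 2, against 29.2%. Acsl4, which loads unsaturated chains into lipids, was at 14.2 FPKM ± 0.885, and the lipoxygenase genes Alox5, Alox12 and Alox15 were below 1 FPKM in the mean. Dhodh was listed at 5.59 and 3.15 FPKM in replicates 2 and 3 and at 0 in replicate 1.

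**Figure D4:**
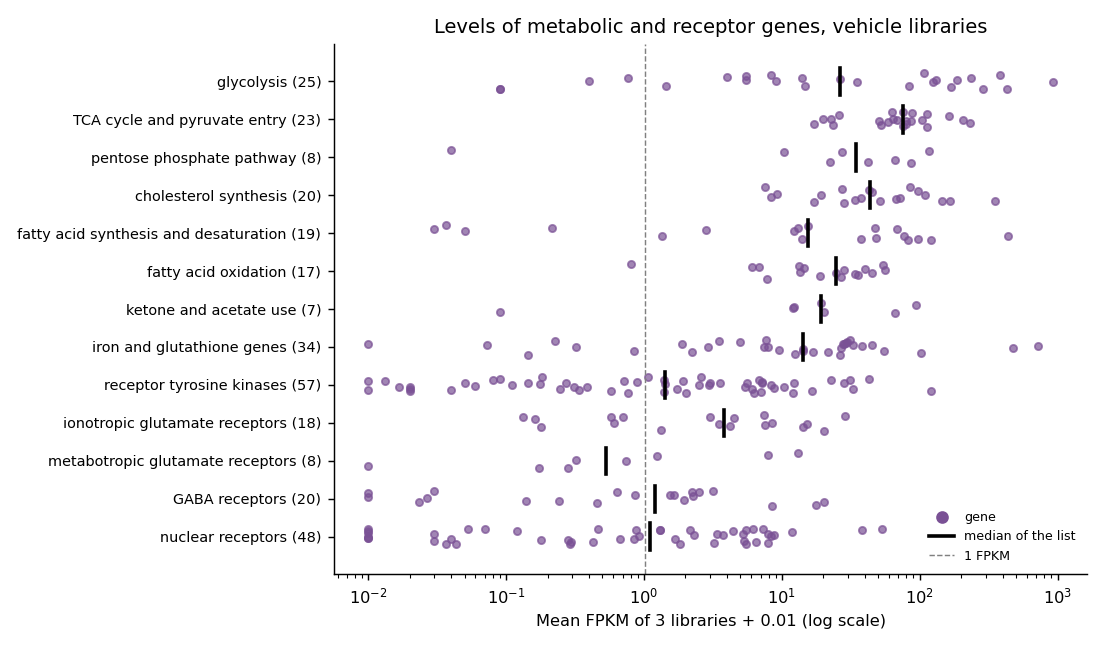
Mean FPKM of the 3 vehicle libraries, plus 0.01, on a log axis for every member of 13 lists of metabolic and receptor genes; each point is a gene, the bar is the list's median, the dashed line is 1 FPKM and the number of members is in brackets. Median members of the citric acid cycle (75.25 FPKM) and cholesterol synthesis (43.9 FPKM) lie furthest right, and receptor lists spread from 0 to above 10 FPKM around medians of 0.523 to 3.83 FPKM.

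Genes of the cell cycle were high. All 32 proliferation genes reached 1 FPKM in every library and 28 reached 10 FPKM, and the median member was at 50.7 FPKM, percentile 93.1. Pcna, the sliding clamp of DNA replication, was at 327, 319.5 and 317 FPKM, Cdk4 at 298, 314 and 288 FPKM and Ccnd1, cyclin D1, at 212, 178 and 208 FPKM. Mki67, which marks cells in cycle, was at 124, 113 and 84.35 FPKM and Top2a, the topoisomerase of dividing cells, at 67.9, 68.6 and 57.6 FPKM. Both were lowest in replicate 3, as were 20 of the 32 genes, against 40.9% of all genes with a mean of at least 1 FPKM. The inhibitors Cdkn1a and Cdkn1b were at 73.6 FPKM ± 14.3 and 29.5 FPKM ± 0.919, and Cdkn2a and Cdkn1c below 5 FPKM. Of 21 immediate early genes 15 reached 1 FPKM in every library, led by Myc at 31.8 FPKM ± 1.86, Jun at 20.3 FPKM ± 3.41 and Klf6 at 19.8 FPKM ± 1.58. Fos, which rises with acute stimulation and with handling, averaged 3.46 FPKM ± 0.265, and Fosb was at 0.0400 FPKM.

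The spread between the libraries depended on the level of a gene. Over the 7278 genes with a mean of at least 5 FPKM and 100 expected counts, the median CV was 7.50% (quartiles 4.50% and 12.1%), and 5.63% remained after counting noise was removed. For 24.6% of these genes the spread was no larger than counting gives. The CV fell with level, from a median of 18.3% at 1 to 5 FPKM to 4.63% at 100 FPKM and above. Of the 11299 genes with a mean of at least 1 FPKM, the highest library was at least 1.5 times the lowest for 19.2%. In no pair did the libraries agree within sampling noise, since the chi-square per degree of freedom was 5.56, 8.61 and 9.74 for replicates 1 and 2, 1 and 3, and 2 and 3. Replicate 3 stood furthest apart: 205 genes were at least 1.5-fold higher in replicate 1 than in it and 111 lower, beside 68 and 52 between replicates 1 and 2. It was also the lowest library for 40.9% of genes. With all 3 libraries, the median CV of the 7710 genes with a mean of at least 5 FPKM was 7.74%. A CV of 2 libraries tends to be smaller than one of 3, so values with 1 library left out are compared with each other. Over genes with a mean of at least 5 FPKM in the kept libraries, the median CV was 5.02% without replicate 3. It was 6.92% without replicate 2 and 6.99% without replicate 1.

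The lineage lists were among those lowest in replicate 3. Of the 31 other OPC-enriched genes with a mean of at least 1 FPKM, 23 were lowest there and 0 highest. Of the 11 committed precursor genes 9 were lowest there and 2 highest. The background for that library was 40.9% lowest and 33.5% highest. Of the 6 core markers 4 were lowest there and 0 highest. Their summed FPKM was nevertheless lowest in replicate 1, at 1112 beside 1119 in replicate 3. The median member of the committed list was 0.35 log2 units below its 3-library mean in replicate 3. The sharpest single cases were Cdo1, cysteine dioxygenase, at 18.5, 23.8 and 8.15 FPKM in replicates 1, 2 and 3, and Gpr17. In the same library the neuronal and iron lists were at their highest, with median log2 ratios of 0.10 and 0.11, and the microglial list was between those of the other libraries. The part of other cell types in the lower levels of the OPC-enriched and committed lists was not tested.

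**Figure D5:**
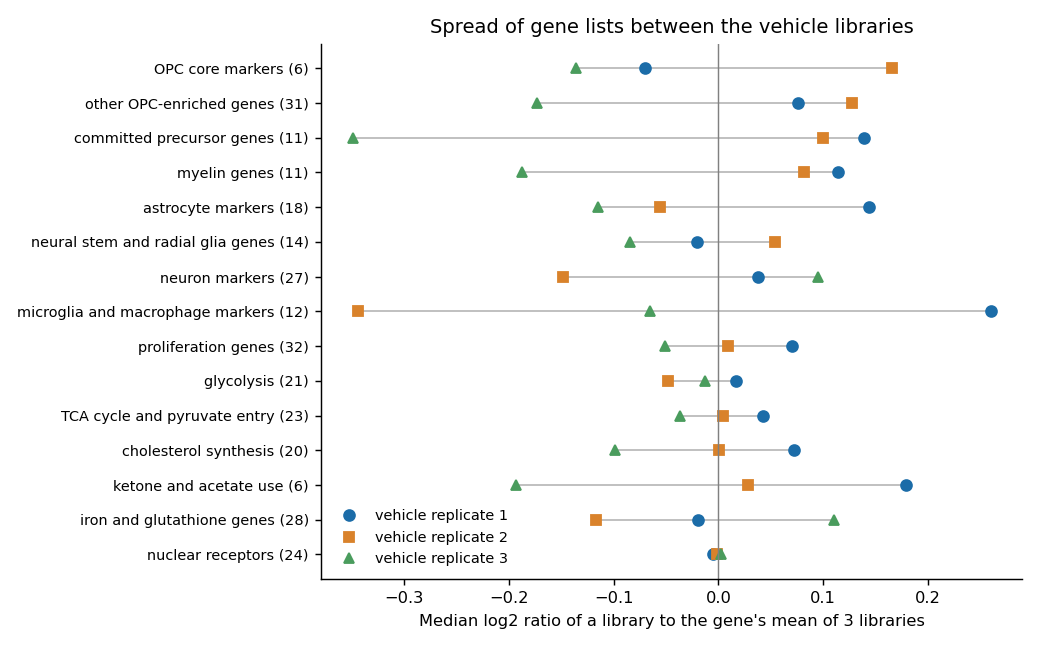
Median log2 ratio of each vehicle library to the gene's mean of 3 libraries, over the members of 15 lists with a mean of at least 1 FPKM (their number in brackets); symbols are libraries and the grey line joins lowest and highest. Replicate 3 is lowest for the progenitor, committed and myelin lists. It is also lowest for the astrocyte, radial glia, proliferation, citric acid cycle, cholesterol and ketone lists. Replicate 2 is lowest and replicate 1 highest for microglia, and the 3 libraries nearly coincide for nuclear receptors.

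A few genes with a steady level in 2 libraries were nearly absent from the other. Zfp445, a zinc finger factor of imprinting control, was at 10.6, 0 and 11.8 FPKM, Nfic, a nuclear factor I gene, at 10.3, 0.13 and 10.5 FPKM and Wdfy1 at 0.31, 8.42 and 7.60 FPKM. Ints10, a subunit of the Integrator complex, was at 10.7, 2.44 and 2.44 FPKM, and Slc35c2 and Evi5 were also low in replicate 2. A value at or near 0 of this kind can be a failed estimate of the counter rather than a lack of RNA. Also among the 10 with the largest spread were Adipor2, Nif3l1, Rbbp6 and Cox6c, a subunit of cytochrome oxidase at 54.1, 43.25 and 11.4 FPKM. At the other end, the 10 genes picked for the smallest spread were Camk2n2, Naa15, Ranbp3, Acbd3, Leo1, Tiprl, Vdac1, Wapl, Mesd and Rtn3. Their spread was no larger than counting gives, as for 24.6% of the 7278 genes from which they were picked. Vdac1, the channel of the outer mitochondrial membrane, was at 166, 165 and 166 FPKM and Rtn3, a reticulon, at 173, 172 and 173 FPKM. Of the common reference genes, Hprt was at 33.9 FPKM ± 2.45, Tbp at 7.80 FPKM ± 0.951 and Actb at 1057 FPKM ± 69.9.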

How the data were processed

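Per the labels' protocols, RNA was enriched for mRNA, amplified by PCR and sequenced on Illumina libraries; strand and read length were not given. The submitters' processing notes name Bowtie 0.12.2, RSEM without a version, and the builds mm8 and mm9 without a role. Per the file headers, the deposited tables give expected counts, estimated per transcript model and often not whole, and FPKM, which the authors scaled by transcript length and library size. They list features above 0 only.

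Expected counts and FPKM were summed per gene identifier over the models of each library, and a gene not listed was set to 0. Names came from the RefSeq gene table of GRCm38.p6, which matched 16712 of 16752 identifiers; 40 were not matched and are not named. Exons and printed sequences came from GENCODE vM21 on GRCm38, and the files give no coordinates. Means, SD and ranks were computed in Python 3.11.15 with pandas 2.3.3. Counting noise was taken as Poisson, and the CV left after it was tested on simulated data. Since PCR reads carry no molecular identifiers, this covers counting error only. TMM factors for an alternative came from edgeR 4.0.16 in R 4.3.3. No test was run, because 1 group is described.

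The members and gene lists were chosen with earlier results of these data known. Named genes are the 6 core markers, the 15 highest genes, the 3 highest members of each list with its defining markers, low members, and the 10 genes of largest and the 10 of smallest spread beyond counting among those with a mean of at least 5 FPKM and 100 expected counts, with ties broken by CV. Provisional names and multi-copy families were passed over, and a few genes named by this rule are not reported here. Other list members named in the text, and the transcript models shown, were chosen after their values were seen. A list's median counts members not listed as 0. Alternatives were TPM or CPM in place of FPKM, TMM scaling, a minimum of 10 expected counts, no ribosomal protein genes, the highest model in place of the sum, other thresholds, and leaving out each replicate.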

Additional observations from a re-analysis of the deposited data

How the results depend on the processing

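The number of genes at or above 1 FPKM in every library stayed within 1.5 times of 10736 under every alternative run, from 7246 at a threshold of 5 FPKM to 12258 with CPM. With TPM or CPM the cut was 1 of that unit, which is not the same level as 1 FPKM. CPM, which has no length scaling, lowered the share of the 100 highest genes from 24.9% to 14.6%. It raised the summed share of the core progenitor markers from 0.374% to 0.570%, of astrocyte markers from 0.403% to 0.581% and of neuron markers from 0.130% to 0.204%, and lowered that of microglia from 0.0233% to 0.0133%. Without ribosomal protein genes these became 21.2%, 0.431%, 0.465%, 0.149% and 0.0268%, and with the highest transcript model in place of the sum the first was 26.2% and the neuron share 0.1197%. Leaving out 1 replicate at a time gave a median CV of 5.02% to 6.99%, against 7.74%, the lowest without replicate 3. Part of this fall comes from the use of 2 libraries in place of 3. CPM also lowered the share of neural stem and radial glia genes from 1.98% to 0.848% and moved Cspg4 from percentile 81.7 to 94.9, above Sox10 at 94.6, and Pdgfra from 97.6 to 99.7, and a minimum of 10 expected counts moved Cspg4 to 75.4. Counts of members by library were added after seeing the data. Of the 6 core, 31 OPC-enriched and 11 committed genes with a mean of at least 1 FPKM, 36 were lowest in replicate 3, against 40.9% of all such genes. Under the alternatives the count was 32 to 41. An alternative can change which members pass the cut, so these counts are not all over the same genes. The counts have no value with a replicate left out. No paired analysis was possible because 1 group is described. With 3 libraries, an SD is itself imprecise, and below 5 FPKM counting noise takes a large part of the spread.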
